A study of Mus musculus with 7 samples.

Results

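The BCL2 family sets whether a cell under stress keeps its mitochondria intact or starts apoptosis. The 10 members described here were taken by gene symbol from the 55487 gene rows of a count table of mouse pancreatic islets, whatever their values. They are the anti-apoptotic genes Bcl2, Mcl1 and Bcl2l1, the effectors Bax and Bak1, and the BH3-only genes Bcl2l11, Bad, Bid, Bbc3 and Pmaip1. RNA was sequenced in 4 libraries of control islets and 3 libraries of islets with a beta-cell specific knockout of Traf6 (Traf6 KO), the gene of a ubiquitin ligase downstream of Toll-like and interleukin-1 receptors. Each library has its own letter and number tag (Q, R or S), and whether islets of several mice were pooled is not stated. All mice of both genotypes ate a high-fat diet labelled 60% for 15 weeks, and all islets rested in culture medium for 24 hours before RNA was taken. The strain, age, sex and litter of the mice, the Cre driver of the knockout and the genotype of the controls beyond the word control do not appear in the sources used here. An islet library also holds alpha, delta and other cells, in which a beta-cell specific knockout leaves Traf6 intact.

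Anti-apoptotic proteins of this family bind and hold the killer members. BAX and BAK, the effectors, form pores in the outer mitochondrial membrane when they are freed, and cytochrome c then leaves to activate caspases. BH3-only proteins are the sensors: BIM (Bcl2l11) and PUMA (Bbc3) bind all main anti-apoptotic proteins, NOXA (Pmaip1) binds mainly MCL-1, BAD binds BCL-2 and BCL-xL, and BID carries signals from death receptors. BCL-xL is the protein of Bcl2l1. In beta cells these genes are known for their part in death under endoplasmic reticulum stress, cytokines and excess fatty acids. Much of their control acts on protein level, such as phosphorylation of BAD, cleavage of BID and rapid turnover of MCL-1, which transcript counts do not show.

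The upstream sequences of 4 members are shown because the results below turn on them: Mcl1 and Bcl2 lay higher in Traf6 KO, and Bcl2l1 and Bax lower. Each is the stretch of 250 bases before the outermost RefSeq transcription start on GRCm38.p6, written 5′ to 3′ on the strand of the gene, with capitals for matches to the motifs named after them.
Mcl1, chr3:95658471-95658720, plus strand: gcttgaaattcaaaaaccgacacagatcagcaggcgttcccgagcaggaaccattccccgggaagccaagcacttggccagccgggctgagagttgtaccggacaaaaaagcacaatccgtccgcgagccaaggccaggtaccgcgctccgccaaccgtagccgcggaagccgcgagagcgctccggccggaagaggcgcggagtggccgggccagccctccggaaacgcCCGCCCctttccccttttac
Bcl2, chr1:106714291-106714540, minus strand: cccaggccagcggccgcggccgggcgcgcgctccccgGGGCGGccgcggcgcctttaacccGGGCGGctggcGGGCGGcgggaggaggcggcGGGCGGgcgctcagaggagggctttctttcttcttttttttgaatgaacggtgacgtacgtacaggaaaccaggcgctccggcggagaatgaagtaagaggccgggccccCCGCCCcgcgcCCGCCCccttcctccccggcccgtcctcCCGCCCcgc
Bcl2l1, chr2:152831729-152831978, minus strand: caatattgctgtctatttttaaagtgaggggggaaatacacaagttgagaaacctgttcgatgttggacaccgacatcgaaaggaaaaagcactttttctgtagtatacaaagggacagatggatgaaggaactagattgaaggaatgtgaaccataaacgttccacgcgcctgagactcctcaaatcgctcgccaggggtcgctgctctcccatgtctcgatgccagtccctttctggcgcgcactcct
Bax, chr7:45466899-45467148, minus strand: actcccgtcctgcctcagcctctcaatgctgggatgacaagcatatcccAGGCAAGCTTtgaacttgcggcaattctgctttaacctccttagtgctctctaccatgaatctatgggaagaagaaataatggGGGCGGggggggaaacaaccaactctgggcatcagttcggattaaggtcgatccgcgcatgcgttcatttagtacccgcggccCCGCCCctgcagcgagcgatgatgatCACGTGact
The motifs searched on both strands were the GC box GGGCGG, the CCAAT box CCAAT, the TATA box TATAAA, the cyclic AMP element TGACGTCA, the E-box CACGTG, the forkhead element GTAAACA, the STAT element TTCNNNGAA, and, by name alone, the NF-kB element and the p53 decamer. No match overlapped another in these 4 windows. Bcl2 held 7 GC boxes, Bax 2, Mcl1 1 and Bcl2l1 0, where 32.7% of the 32851 windows searched hold at least 1. Bcl2l1 has 3 listed starts, of which only the outermost is described here, while Bcl2, Mcl1 and Bax have 1 each. Bbc3 also has 3 listed starts, and Bad and Bcl2l11 have 2 each. Bax also held 1 E-box and 1 p53 decamer, found in 6.02% and 7.13% of all windows. The other motifs had no match in these 4 windows, and all windows hold them in 33.8% (CCAAT box), 12.4% (TATA box), 1.55% (cyclic AMP element), 3.17% (forkhead element), 7.02% (STAT element) and 0.14% (NF-kB element) of cases. Windows of 9 of the 10 members were searched, and Pmaip1 was left out before windows were counted. The GC content of these 9 windows ran from 47.6% (Bcl2l1) to 76.4% (Bbc3) with a median of 63.6%. Windows of tested genes had a median of 59.2% and quartiles of 52.4% and 66.4%. Bcl2 (74.8%) and Mcl1 (64.4%) were richer in GC than Bax (54.0%) and Bcl2l1 (47.6%), and Bad stood at 62.8%.

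Totals ran from 22104256 to 29917292 counts per library. Insulin, glucagon and somatostatin transcripts were abundant in each library, as is known of islets. The 25 acinar markers took 54.84% and 41.79% of counts in Traf6 KO 1 and 2, 19.66% in control 1, 3.161% in the library labelled control 4 and 0.4529% to 1.587% in the other libraries. CPM stands for counts per 1000000 after TMM scaling, which divides by the library total times a factor computed from most genes. Traf6 stood at 12.6 to 25.5 CPM in control and at 14.5 to 15.4 CPM in Traf6 KO (edgeR log2 fold change -0.40, SE 0.22, adjusted p = 0.416). The library labelled control 4 had the lowest value of all 7 and so goes against its label in this gene. It was kept among the controls for every direction given. The count covers the whole gene and does not see a deleted exon apart. Traf6 KO 3 alone had 0 counts of 3 Y-linked genes and 421 CPM of Xist, the pattern of female tissue. Beta-cell markers, as the mean log2(CPM + 1) of 10 genes, spanned 10.86 to 11.01 over the controls and 10.38 to 10.64 over the knockouts. The other 8 marker lists (acinar, alpha, delta and gamma, ductal, endothelial, stellate, myeloid and lymphocyte) overlapped between genotypes, and no marker was at 0 in all libraries. The part of the beta-cell and acinar levels in the results below was not tested, and in such bulk samples fewer cells of a type and less RNA per cell cannot be told apart.

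The family did not move as a block. Bcl2 and Mcl1 were higher in each Traf6 KO library than in any control, and Bcl2l1, Bax and Bad were lower. Groups of libraries overlapped for Bak1, Bcl2l11, Bid, Bbc3 and Pmaip1. All 10 members passed the filter on low counts. None of the 10 passed edgeR's quasi-likelihood test at an adjusted p under 0.05, as no gene of 16203 did (0.0%). By the unadjusted p, 2 members higher and 3 lower in Traf6 KO were under 0.05, beside 8.81% and 7.17% of all genes tested (16.0% in all). With DESeq2, which called 5.22% of all genes, 2 members passed the adjusted threshold. With limma-voom 0 passed, and with limma-voom with quality weights, which called 6.46% of all genes, 4 passed. Over all genes, 5.58% lay above every control and 8.68% below without overlap, 14.3% in all. Of the 10 members, 5 had no overlap, 2 above and 3 below. The median log2 fold change was 0.56 over the anti-apoptotic members, -0.28 over the effectors and 0.23 over the BH3-only members, beside 0.005 over all genes tested.

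**Figure D1:**
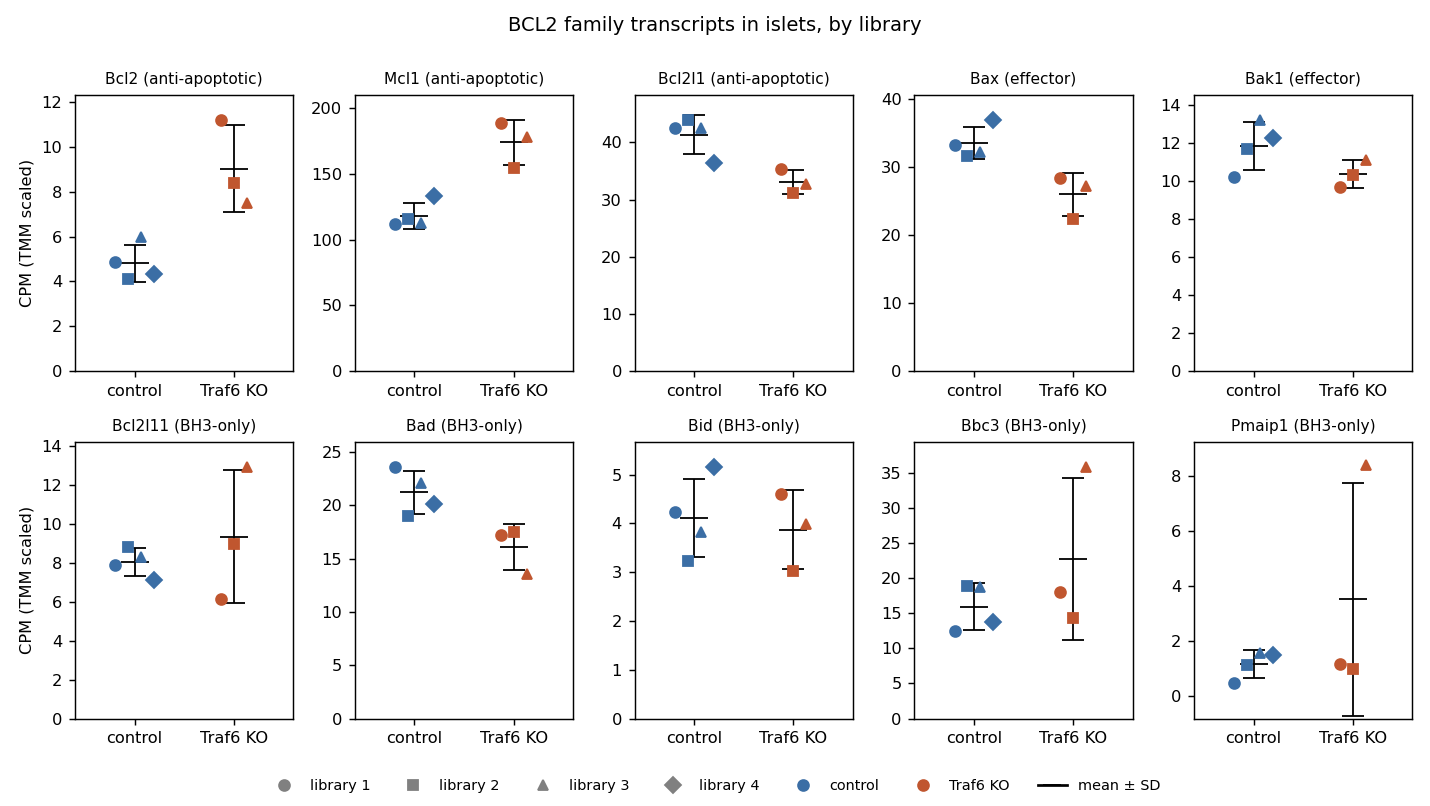
Each panel plots the CPM of 1 member (y axis, TMM scaled, linear) in each library by genotype (x axis), with symbols for the library number and black bars for mean ± SD. Bcl2 and Mcl1 sit higher in all Traf6 KO libraries, Bcl2l1, Bax and Bad sit lower, and Bbc3 and Pmaip1 are high in Traf6 KO 3 alone among the 7.

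Mcl1 encodes a short-lived anti-apoptotic protein that cells need to make all the time. The gene (ENSMUSG00000038612) lies at chr3:95658788-95663176 on GRCm38, the build of all positions here. Controls 1 to 3 gave 112, 116 and 112 CPM, the library labelled control 4 gave 133 CPM, and Traf6 KO 1 to 3 gave 189, 155 and 178 CPM. All 3 Traf6 KO libraries were thus above all controls. The mean was 118 ± 9.97 CPM over the 4 controls and 174 ± 17.3 CPM over the 3 Traf6 KO libraries (SD), a log2 fold change of 0.56 with an SE of 0.12 (adjusted p = 0.176 in edgeR). With the acinar level as a covariate the log2 fold change was 0.56 with an SE of 0.14. The DESeq2 Wald test (adjusted p = 0.000386), which called 3.43% of genes higher and 1.79% lower (5.22% in all), had Mcl1 higher. So did limma-voom with quality weights (adjusted p = 0.0348), which called 4.13% higher and 2.33% lower (6.46% in all).

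Bcl2, the founding anti-apoptotic gene of the family, was rare in these islets. The gene (ENSMUSG00000057329) spans chr1:106538178-106714274. Libraries of controls 1 to 3 had 4.87, 4.10 and 5.97 CPM, the library labelled control 4 had 4.34 CPM, and Traf6 KO 1 to 3 had 11.2, 8.40 and 7.48 CPM. Groups did not overlap, and the lowest Traf6 KO library had 7.48 CPM with an exact 95% Poisson interval of 6.55 to 8.51, which covers counting error only, beside 5.18 to 6.85 for the highest control. The mean was 4.82 ± 0.832 CPM over the 4 controls and 9.03 ± 1.95 CPM over the 3 Traf6 KO libraries (SD). Its log2 fold change of 0.90 with an SE of 0.21 (adjusted p = 0.189 in edgeR) was above that of Mcl1, though the difference between these genes was not tested. DESeq2 (adjusted p = 0.00986), limma-voom with quality weights (0.0454) and edgeR without Traf6 KO 3 (0.049) called it. That last fit called 3.43% of genes higher and 0.804% lower, 4.24% in all. Without the 3 acinar-rich libraries, which leaves 1 Traf6 KO library, the value was 0.63 (edgeR adjusted p = 0.368). B and T cells also express Bcl2, and the mean log2(CPM + 1) of 10 lymphocyte markers was 0.63 to 2.36 in control and 2.35, 1.46 and 2.80 in Traf6 KO 1 to 3. Their part in the result was not tested.

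Bcl2l1, whose main product BCL-xL guards beta cells and neurons, stood lower in Traf6 KO. The gene (ENSMUSG00000007659) lies at chr2:152780668-152831728. Here controls 1 to 3 held 42.6, 44.0 and 42.6 CPM, the library labelled control 4 held 36.3 CPM, and Traf6 KO 1 to 3 held 35.3, 31.1 and 32.6 CPM. The groups lay close together, with Traf6 KO 1 just under the library labelled control 4. A mean of 41.4 ± 3.42 CPM over the 4 controls stood against 33.0 ± 2.10 CPM over the 3 Traf6 KO libraries (SD), a log2 fold change of -0.33 with an SE of 0.10 (adjusted p = 0.227 in edgeR). Under DESeq2 size factors, with acinar markers taken out before scaling, without control 1 and without Traf6 KO 2, the groups of this gene overlapped. Limma-voom with quality weights called it lower (adjusted p = 0.045), and DESeq2 did not (adjusted p = 0.13).

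Bax, the effector that moves from cytosol to mitochondria on activation, lay lower in Traf6 KO. The gene (ENSMUSG00000003873) lies at chr7:45461697-45466898. For this gene, controls 1 to 3 showed 33.3, 31.6 and 32.2 CPM, the library labelled control 4 showed 36.99 CPM, and Traf6 KO 1 to 3 showed 28.4, 22.4 and 27.2 CPM. No Traf6 KO library reached the lowest control. The mean was 33.5 ± 2.40 CPM over the 4 controls and 25.99 ± 3.21 CPM over the 3 Traf6 KO libraries (SD), and the log2 fold change was -0.37 with an SE of 0.12 (adjusted p = 0.227 in edgeR). Limma-voom with quality weights called it (adjusted p = 0.041) and DESeq2 did not (0.111). Bak1 (ENSMUSG00000057789, chr17:27019810-27029009) encodes BAK, the effector that sits in the mitochondrial membrane at rest. By library, controls 1 to 3 gave 10.2, 11.7 and 13.2 CPM, the library labelled control 4 gave 12.2 CPM, and Traf6 KO 1 to 3 gave 9.68, 10.3 and 11.1 CPM. Here the groups overlapped, since control 1 lay within the range of Traf6 KO, and the log2 fold change was -0.19 with an SE of 0.13 (adjusted p = 0.513 in edgeR). Bak1 shares 437 of its 2407 exon bases with Ggnbp1 on the other strand, so a part of its reads may not be its own.

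An exact permutation test, two-sided, on the log2 CPM of the 7 libraries was run for each of the 10 members. In it Bcl2, Mcl1, Bcl2l1, Bax and Bad each gave an exact p = 0.0571, the smallest that 4 against 3 libraries allow. Groups without overlap must give this value, so for these genes the test only restates the lack of overlap. No overlap was found in 14.3% of all genes. The other 5 members gave p = 0.1714 (Bak1) to p = 0.7429 (Bid) in this exact test.

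Ratios between members within a library do not depend on how libraries are scaled to each other. Counts per kb of exon were compared, and no test was run, since these values are built over chosen members. Bax stood 39.8, 44.9 and 31.4 times above Bcl2 in controls 1 to 3, and 49.5 times for the library labelled control 4, against 14.7, 15.5 and 21.1 times in Traf6 KO 1 to 3. Every Traf6 KO library thus had less Bax per Bcl2 than every control. The mean log2 difference was -1.27, with an SD of 0.28 in each group (n = 4 and 3). Since Bax lay lower and Bcl2 higher without overlap, their ratio could not overlap, and this is no separate support. The ratio of Bax to Bcl2l1 overlapped between genotypes. In this ratio controls 1 to 3 had 2.28, 2.09 and 2.20, the library labelled control 4 had 2.96, and Traf6 KO 1 to 3 had 2.34, 2.09 and 2.42, a mean log2 difference of -0.05 with overlapping groups (SD 0.22 in control, n = 4, and 0.11 in Traf6 KO, n = 3).

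The sum of both effectors over the sum of the 3 anti-apoptotic members separated the genotypes with little spread. In that ratio controls 1 to 3 held 0.596, 0.568 and 0.606, the library labelled control 4 held 0.604, and Traf6 KO 1 to 3 held 0.344, 0.348 and 0.364. No Traf6 KO library reached the lowest control. Its mean log2 difference was -0.75, with an SD of 0.04 in each group (n = 4 and 3). This ratio is set mostly by Mcl1 and Bax, the members with the most counts per kb. Both genes were already without overlap on their own. The anti-apoptotic sum leaves out Bcl2l2, an anti-apoptotic gene that is not a member, at a mean of 90.85 CPM in control. Without the 3 acinar-rich libraries the difference was -0.70, and among Q- and R-tagged libraries, which leaves out the library labelled control 4 and Traf6 KO 3, it was -0.77. The 5 BH3-only members over the 3 anti-apoptotic members gave 0.408, 0.427 and 0.470 in controls 1 to 3, and 0.364 for the library labelled control 4, against 0.276, 0.299 and 0.465 in Traf6 KO 1 to 3. In this ratio Traf6 KO 3 sat among the controls and the other Traf6 KO libraries below them. Its mean log2 difference was -0.30 (SD 0.15 in control, n = 4, and 0.41 in Traf6 KO, n = 3), and -0.53 without Traf6 KO 3.

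**Figure D2:**
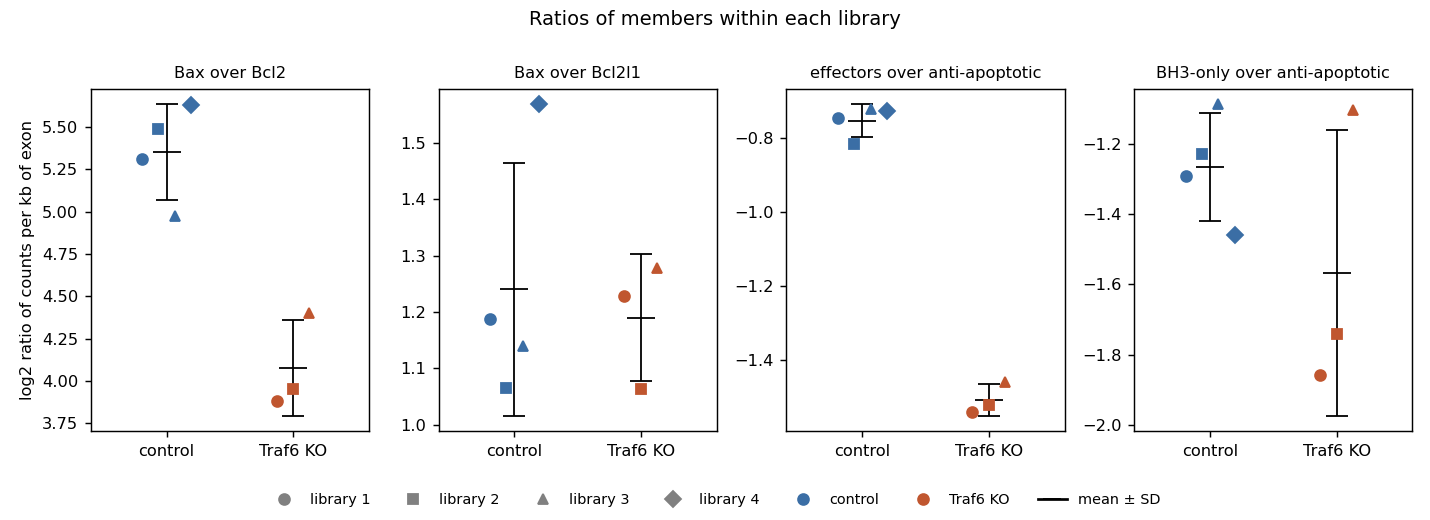
Each panel plots the log2 ratio of counts per kb of exon (y axis) between members within each library, by genotype (x axis), with symbols for the library number and black bars for mean ± SD. Bax over Bcl2 and effectors over anti-apoptotic members are lower in all 3 Traf6 KO libraries, by -1.27 and -0.75 on the log2 scale, while Bax over Bcl2l1 overlaps and the BH3-only ratio of Traf6 KO 3 (0.465 before the log) lies among the controls.

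Among BH3-only genes, Bad lay lower in each Traf6 KO library. BAD links growth factor signals to survival, since AKT phosphorylates it, and it also binds glucokinase in beta cells. The gene (ENSMUSG00000024959) lies at chr19:6941861-6951899. Here controls 1 to 3 showed 23.6, 19.0 and 22.1 CPM, the library labelled control 4 showed 20.2 CPM, and Traf6 KO 1 to 3 showed 17.2, 17.4 and 13.6 CPM. The highest Traf6 KO library was just under the lowest control, and Traf6 KO 3 was lowest. Means of 21.2 ± 2.02 CPM over the 4 controls and 16.1 ± 2.15 CPM over the 3 Traf6 KO libraries (SD) gave a log2 fold change of -0.40 with an SE of 0.13 (adjusted p = 0.234 in edgeR), and of -0.57 ± 0.13 with the acinar covariate (edgeR adjusted p = 0.186). Bad shares 524 of its 2558 exon bases with Gpr137 on the other strand. Gpr137 was lower in each Traf6 KO library too (34.5 ± 4.02 CPM over 4 controls, 26.2 ± 1.06 CPM over 3 Traf6 KO libraries, SD), and without a stated strand setting reads of both genes cannot be told apart.

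Bid, which caspase-8 cuts to its active form, was nearly level. The gene (ENSMUSG00000004446) lies at chr6:120891930-120916853. For this gene, controls 1 to 3 gave 4.24, 3.23 and 3.83 CPM, the library labelled control 4 gave 5.15 CPM, and Traf6 KO 1 to 3 gave 4.61, 3.02 and 3.98 CPM. Its groups overlapped widely, and the log2 fold change was -0.09 with an SE of 0.25 (adjusted p = 0.885 in edgeR). It shares 628 of its 3550 exon bases with Bcl2l13, a more abundant gene of the other strand.

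Bcl2l11, Bbc3 and Pmaip1 had their highest level in Traf6 KO 3. Bcl2l11 (ENSMUSG00000027381, chr2:128126038-128162547), a target of FOXO factors, was at 7.88, 8.83 and 8.31 CPM in controls 1 to 3, and 7.13 CPM for the library labelled control 4, against 6.15, 8.99 and 12.9 CPM in Traf6 KO 1 to 3. Bbc3 (ENSMUSG00000002083, chr7:16308393-16318205), a target of p53 and of the stress factor CHOP, was at 12.4, 18.9 and 18.7 CPM in controls 1 to 3, and 13.7 CPM for the library labelled control 4, against 18.0, 14.3 and 35.8 CPM in Traf6 KO 1 to 3. Pmaip1 (ENSMUSG00000024521, chr18:66458533-66465565), a target of p53 and ATF4, was at 0.455, 1.11 and 1.58 CPM in controls 1 to 3, and 1.48 CPM for the library labelled control 4, against 1.18, 0.969 and 8.39 CPM in Traf6 KO 1 to 3. The groups of all 3 genes overlapped. Traf6 KO 1 and 2 lay within the range of the controls for Bbc3 and Pmaip1, while for Bcl2l11 Traf6 KO 1 lay below that range and Traf6 KO 2 just above it. Counts of Pmaip1 were few outside that library (13 to 54 per library against 259), and its interval in Traf6 KO 3 was 7.40 to 9.47 CPM (exact 95% Poisson). The log2 fold changes were 0.23 ± 0.24 for Bcl2l11, 0.52 ± 0.32 for Bbc3 and 1.63 ± 0.78 for Pmaip1, with adjusted p = 0.664, 0.448 and 0.352 in edgeR (± is the SE). Without Traf6 KO 3 they were -0.08, 0.01 and -0.12, so in fits on genotype alone their means rest on that library. With the acinar covariate they were 0.48, 0.97 and 2.43 (edgeR adjusted p = 0.331, 0.166 and 0.166). With that covariate and without Traf6 KO 3 they were 0.121, 0.602 and 1.255, and none passed the adjusted threshold.

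Traf6 KO 3 also stood apart in some stress-linked genes that regulate this family, named here after their values were seen. Ddit3, the gene of CHOP, had 89.0 CPM there against 14.9 to 33.1 CPM in the other 6 libraries. Jun, a stress-responsive transcription factor gene, had 3985 CPM against 67.7 to 1617 CPM, and Tnfrsf10b, the gene of a death receptor, 5.02 CPM against 0.84 to 3.04 CPM. For these genes too, Traf6 KO 1 and Traf6 KO 2 lay within or below the range of the controls. Of 2 gene rows named Ddit3, the one with more counts was used. Ddit3 shares 68 of its 1713 exon bases with Mars1, a more abundant gene of the other strand. Atf4 at 301 CPM and Trp53 at 22.5 CPM were highest in Traf6 KO 3 by less, with 191 to 268 CPM and 15.7 to 22.02 CPM in the others. Not all genes of the same lists were highest in Traf6 KO 3. Fas, the gene of another death receptor, was lowest there, at 1.134 CPM against 1.236 to 2.895 CPM. E2f1 was at 17.94 CPM in Traf6 KO 3, within the 14.55 to 21.44 CPM of the other libraries. The same library had the female pattern of Xist and Y-linked genes and the highest lymphocyte marker level (2.80), and their part in these values was not tested.

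**Figure D3:**
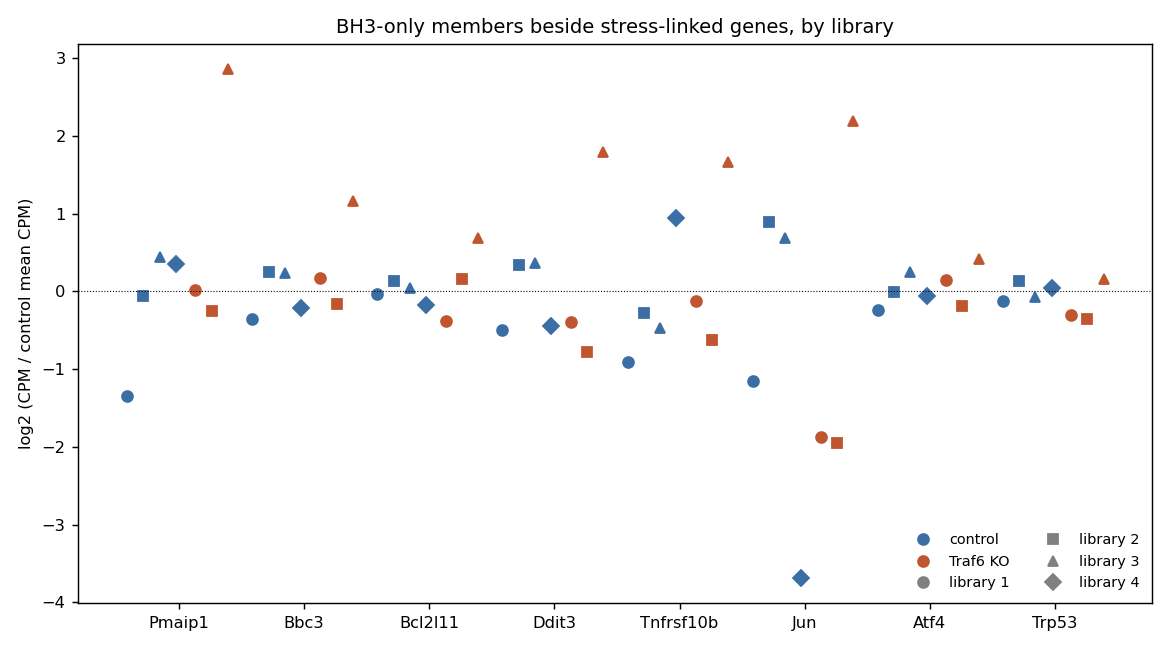
The y axis gives the log2 of each library's CPM over the control mean of that gene, for 3 BH3-only members and 5 other genes (x axis), with colours for genotype and symbols for the library number. Traf6 KO 3 is the highest library for all 8 genes shown, at 8.39 CPM for Pmaip1, 35.8 CPM for Bbc3 and 89.0 CPM for Ddit3, and the genes other than members were chosen after their values were seen. Fas and E2f1, of the same lists, were not highest in Traf6 KO 3 and are not shown.

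Levels can be compared between genes only per length, here as CPM per kb of annotated exon. In control, Mcl1 led with 34.6 ± 2.92 CPM per kb (SD, n = 4), followed by Bax with 21.3 ± 1.52, and their ranges did not overlap. Bcl2l1 (9.02 ± 0.747), Bad (8.29 ± 0.789) and Bbc3 (7.49 ± 1.57) made a middle group whose neighbours overlapped. Bak1 followed with 4.92 ± 0.527 CPM per kb, below all controls of Bbc3. Bid (1.16 ± 0.227), Bcl2l11 (1.00 ± 0.0897), Bcl2 (0.526 ± 0.0908) and Pmaip1 (0.424 ± 0.187) were low, with overlap between Bid and Bcl2l11 and between Bcl2 and Pmaip1. Islets thus held far more Mcl1 and Bcl2l1 than Bcl2 transcript per kb. Mcl1 and Bax were first and second in Traf6 KO too, at 50.9 ± 5.07 and 16.5 ± 2.03 CPM per kb (SD, n = 3). Pmaip1, the lowest in control, ranked 7 by its mean in Traf6 KO, which Traf6 KO 3 sets at 3.07 CPM per kb against 0.43 and 0.355 in the other Traf6 KO libraries. Bcl2 then ranked last, with 0.986 ± 0.213 CPM per kb. The lengths are unions of all annotated exons, so a gene that uses few of them, as can be the case for the long 3′ end of Bcl2, is understated.

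**Figure D4:**
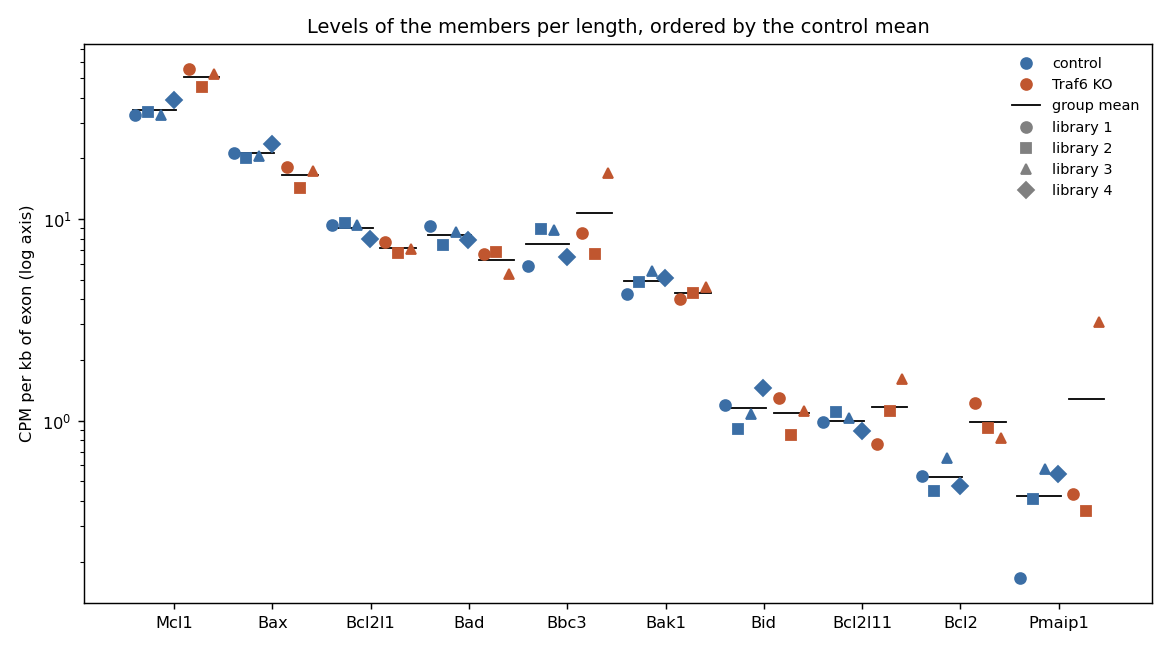
The y axis gives CPM per kb of exon on a log scale for each member (x axis, in the order of the control mean), with points for libraries, colours for genotype and black lines for group means. Mcl1 and Bax lead in both genotypes, at 34.6 and 21.3 CPM per kb in control, and Bcl2 and Pmaip1 are lowest in control, at 0.526 and 0.424.

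Among 64 other genes of apoptosis in 6 lists, 58 were tested and 0 passed edgeR's adjusted threshold, with 5 at an unadjusted p under 0.05, all higher in Traf6 KO, beside 8.81% of all genes higher and 7.17% lower. DESeq2 called 1 of them, limma-voom 0 and limma-voom with quality weights 2, where DESeq2 called 5.22% and quality weights 6.46% of all genes. Of these 58 genes, 5 lay above every control without overlap in Traf6 KO and 2 below, beside 5.58% and 8.68% of all genes. Counts of genes called by these tests were near or under the shares over all genes, and the count below every control was under its share. The count above every control was somewhat over its share of 5.58%, and Ripk1 and Foxo1 are in it by a narrow margin. The median log2 fold change of the 58 was 0.16, and 43 of 58 were above 0, beside 8209 of 16203 genes. Other BCL2 relatives had 8 of 11 tested genes above 0 (median 0.38). Bcl2l2, an anti-apoptotic relative, was at 90.85 ± 9.66 CPM over the 4 controls and 107 ± 21.1 CPM over the 3 Traf6 KO libraries (SD). Its groups overlapped, with a log2 fold change of 0.24 and an SE of 0.16 (adjusted p = 0.485 in edgeR). Bmf, a BH3-only gene tied to the cytoskeleton, was at 4.599 ± 0.175 CPM over the 4 controls and 5.99 ± 0.771 CPM over the 3 Traf6 KO libraries (SD), above every control. Bik, another BH3-only relative, went the other way and lay below every control. Traf6 KO 1 to 3 held 1.176, 1.885 and 1.684 CPM of it, while the controls ranged from 1.902 to 3.883 CPM, so the margin was narrow. The log2 fold change of Bik was -0.696 with an SE of 0.34 (adjusted p = 0.3585 in edgeR). Bok, an effector-like gene, was highest in the 3 acinar-rich libraries, with 21.3 and 12.2 CPM in Traf6 KO 1 and 2, 7.21 CPM in control 1 and 3.90 to 5.58 CPM in the other 4 libraries. Its log2 fold change was 1.21 with an SE of 0.49 (adjusted p = 0.287 in edgeR), and -0.22 without the 3 acinar-rich libraries. Bcl2a1d, a gene of blood cells with near-identical copies, had 1.38 ± 0.66 and is uncertain for that reason, and Bcl2l13, a mitophagy receptor of the family, had 0.26 ± 0.11 (SE). Bcl2a1b, Bcl2l10, Hrk and Bcl2l15 had at most 15 counts in any library and were not tested.

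Downstream of the mitochondria, 7 of 13 genes of the apoptosome and the caspases were above 0 (median 0.06). Casp9, the initiator caspase of this route, had 960 and 369 CPM in Traf6 KO 1 and 2, 165.5 CPM in control 1, 35.9 CPM in the library labelled control 4, and 12.7 to 19.7 CPM in the others. The 3 acinar-rich libraries were thus highest, and the gene shares 94 exon bases with each of the acinar enzyme genes Cela2a and Ctrc on the other strand, Cela2a being at 126200 CPM in Traf6 KO 1. Its log2 fold change of 2.98 with an SE of 1.27 (adjusted p = 0.307 in edgeR) was -0.05 with the acinar covariate. Apaf1, the scaffold of the apoptosome, had 0.40 ± 0.24, and the mitochondrial genes Aifm1 and Endog had 0.30 ± 0.20 and -0.30 ± 0.14 (SE). With the acinar covariate Aifm1 was at 0.005. Endog shares exon bases with Spout1 on the other strand, and is uncertain for that reason. All 6 inhibitor of apoptosis genes were above 0 with TMM scaling (median 0.24). With plain library totals Xiap, Birc2 and Birc3 were below 0 and Birc5 was at 0.721. Values of Birc6 and Cflar with plain totals are not given here. With TMM scaling they were at 0.124 and 0.047, and plain totals moved the median of all genes by -0.467. Xiap, which blocks caspases directly and had the smallest p of the list, was at 25.6 ± 1.703 CPM over the 4 controls and 34.2 ± 6.52 CPM over the 3 Traf6 KO libraries (SD), with 39.3 and 36.4 CPM in Traf6 KO 2 and 3, and 26.9 CPM in Traf6 KO 1 within the control range. Its log2 fold change was 0.42 with an SE of 0.14 (adjusted p = 0.235 in edgeR). Birc5, a gene of dividing cells, had 1.49 ± 0.75 (SE), but 0.48 without Traf6 KO 1, 0.33 with the acinar covariate and 0.45 without the 3 acinar-rich libraries. Birc3, an NF-kB target, had 0.35 ± 0.22 and Birc2, its relative, 0.08 ± 0.11 (SE).

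Upstream of the family, 9 of 10 tested transcriptional inputs were above 0 (median 0.25). Foxo3, a transcription factor gene whose product drives Bcl2l11 and Bbc3 when AKT is low, was at 46.9, 43.5 and 38.6 CPM in controls 1 to 3, and 47.2 CPM for the library labelled control 4, against 68.5, 72.7 and 56.5 CPM in Traf6 KO 1 to 3. Each Traf6 KO library lay above each control, with a log2 fold change of 0.58 and an SE of 0.12 (adjusted p = 0.176 in edgeR and 0.00339 in DESeq2), and of 0.38 without the 3 acinar-rich libraries. Mapk9, which encodes the stress kinase JNK2, had 0.35 ± 0.11 with no overlap, its relative Mapk8 0.37 ± 0.17 with overlap, and Foxo1 0.15 ± 0.10 with no overlap (SE). For Foxo1 the margin was narrow, with 47.95 CPM in Traf6 KO 1 against 47.73 CPM in control 1. Akt1, the kinase gene upstream of BAD, had 0.32 ± 0.15 (SE), but 0.08 with the acinar covariate and 0.001 without the 3 acinar-rich libraries. In the list of binding and turnover partners, 8 of 11 were above 0 (median 0.16), among them Usp9x, which spares MCL-1 from degradation, at 0.39 ± 0.21. Mtch2, the mitochondrial receptor of BID, was below every control at -0.13 ± 0.08, and Dynll1, a dynein light chain that binds BIM and BMF, stood at -0.19 ± 0.11 (SE). The death receptor arm had 5 of 7 tested genes above 0 (median 0.09). Ripk1, which shares exon bases with Serpinb6a on the other strand, lay above every control at 0.18 ± 0.09 (SE). Its margin was narrow, with 29.31 CPM in Traf6 KO 1 against 29.26 CPM in control 2. Tradd and Fadd, adaptors of Ripk1, stood at -0.34 ± 0.15 and -0.17 ± 0.13, and Tnfrsf10b at 0.69 ± 0.64 (SE), or -0.37 without Traf6 KO 3. None of the genes named in this paragraph passed edgeR's adjusted threshold.

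Scaling sets the size of each fold change, though not the ratios within a library. With plain library totals in place of TMM factors, the median of all genes moved by -0.47 on the log2 scale. Members moved with it: Mcl1 was then at 0.08, Bcl2 at 0.34, Bcl2l1 at -0.81, Bax at -0.84 and Bad at -0.92, and Bad alone kept groups without overlap. Mcl1 and Bcl2 stayed above 0, and Bcl2l1, Bax and Bad below 0, in all 22 alternative settings. These 5 were singled out for groups without overlap, so that leaving out a library could not turn them, and this is no separate support. Bid, Bbc3, Bak1, Bcl2l11 and Pmaip1 changed sign in 1 to 4 settings each.

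**Figure D5:**
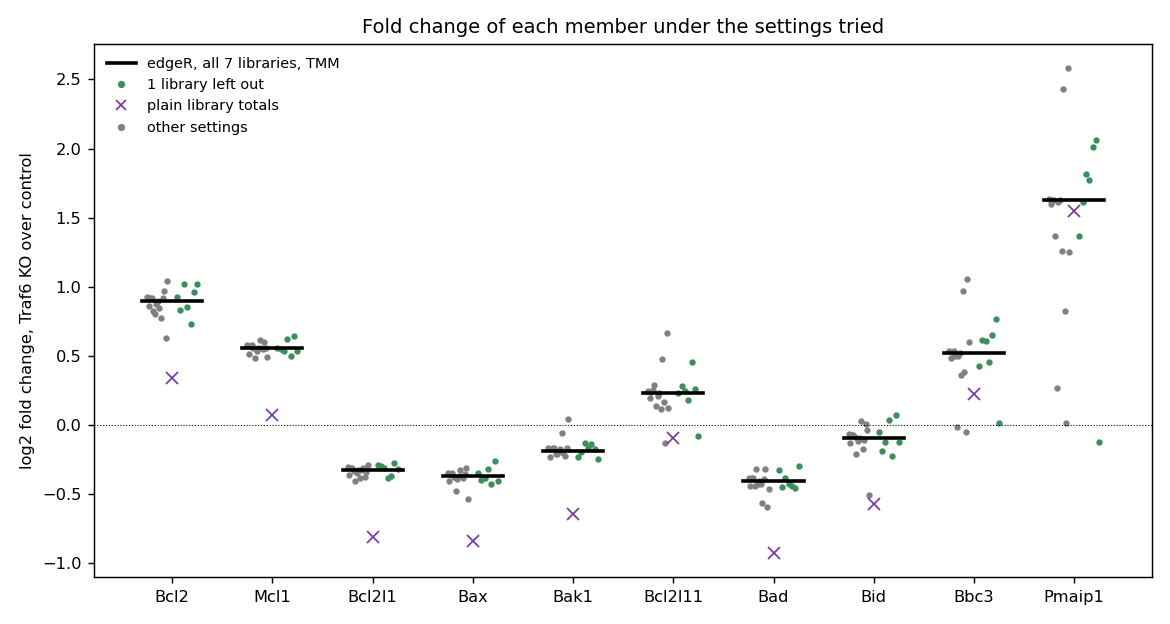
The y axis gives the log2 fold change of Traf6 KO over control for each member (x axis), with a black bar for edgeR on all 7 libraries with TMM factors, green points for fits that leave out 1 library, a cross for plain library totals and grey points for the other settings. Mcl1 runs from 0.08 with plain totals to 0.65, Bcl2 from 0.34 to 1.04, and Pmaip1 from -0.12 without Traf6 KO 3 to 2.58.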

How the data were processed

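Gene counts came from 1 deposited table with a column for each of the 7 islet libraries, 4 control and 3 Traf6 KO, grouped by the library names in the labels. Its values are raw counts as the authors deposited them, whole numbers with no normalization. The submitters' processing notes list FastQC, STAR 2.6.1b and RSEM 1.3.1 beside GRCm38 without saying which step each took. Whether the values are RSEM estimates rounded to whole numbers cannot be read from them. Annotation and strand setting were not given in the sources used here. Reads were paired, 151 bp long, per the labels' protocols, where the kit named for RNA is one for tissue DNA. No label says that the libraries of a group came from separate animals, so p-values measure the spread between these samples, which may be technical, at least among the controls. Traf6 KO 3 had the female pattern and Traf6 KO 1 and 2 had Y-linked counts, so the samples of that group were not all of the same mouse.

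The quasi-likelihood F test of edgeR 4.0.16 (R 4.3.3) was fitted to all 7 libraries, with TMM factors and genotype as the only term. Low counts were filtered by filterByExpr (count of 10, total of 15). P-values were adjusted by Benjamini-Hochberg over the 16203 genes left, and 0.05 was the threshold. The SE of a fold change is its size over the square root of F. Fold changes are Traf6 KO over control. Alternatives used DESeq2 1.42.0 and limma 3.58.1. Exact permutation tests used scipy 1.17.1. Exon lengths and positions came from GENCODE release M21 on GRCm38, which matched 55141 of 55487 gene identifiers, and upstream sequences from RefSeq on GRCm38.p6. Scripts were tested on simulated data.

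The members and gene lists were chosen with earlier results of these data known. Genes named are the 10 members, Traf6 and up to 4 genes of each of the 6 pathway lists with the smallest p. Others were picked with their values in view, as the text says, or are named for sharing exon bases with a member or for counts too low to test. Bcl2l2, Bik, Fas, E2f1, Birc6 and Cflar were also added with their values in view.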

Additional observations from a re-analysis of the deposited data

Results flagged for a closer look

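Casp9 in control 1 stood apart from the other controls, with 165.5 CPM against 12.7 to 35.9 CPM, a gap of 0.848 of the group's range, above Dixon's 95% limit for 4 libraries. The acinar markers took 19.66% of counts in control 1 and at most 3.161% in the other controls. Chance sets apart about 1 in 20 such groups, and 39 control groups were checked.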

How the results depend on the processing

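The count of genes past the threshold was 0 in 16 of 22 alternatives. It was 744 with the DESeq2 Wald test, 1046 with limma-voom with quality weights, 6 with the replicate block, 3 with the acinar covariate, 67 without the 3 acinar-rich libraries (chosen after seeing the data) and 0 to 701 when each library was left out in turn. Members past it numbered 2 with DESeq2 (Bcl2, Mcl1), 4 with quality weights (Bcl2, Mcl1, Bcl2l1, Bax) and 0 to 1 with a library left out, and other apoptosis genes 1, 2 and 0 to 2. Members without overlap numbered 1 with plain totals, 9 without the acinar-rich libraries (1 Traf6 KO library left) and 4 to 6 with a library left out. The log2 difference of Bax over Bcl2 was -0.96 without the acinar-rich libraries and -1.44 to -1.18 with a library left out, and that of effectors over anti-apoptotic members was -0.70 and -0.78 to -0.74. Bax over Bcl2l1 turned to 0.014 among Q- and R-tagged libraries and 0.02 without the acinar-rich libraries, and ran from -0.109 to 0.059 with a library left out. The BH3-only ratio was -0.60 among Q- and R-tagged libraries, 0.15 without the acinar-rich libraries and -0.53 to -0.16 with a library left out. Signs turned for Bcl2l11 (-0.09 with plain totals, -0.13 among Q- and R-tagged libraries, -0.079 to 0.453 with a library left out), Bid (0.026 with the replicate block, 0.006 among Q- and R-tagged libraries, -0.222 to 0.074 with a library left out), Bbc3 (-0.014 with quality weights, -0.051 among Q- and R-tagged libraries), Pmaip1 (-0.12 to 2.06 with a library left out) and Tnfrsf10b (-0.37 to 1.21). With plain totals they also turned for Bmf (-0.075), Bcl2l13 (-0.18), Apaf1 (-0.001), Aifm1 (-0.31), Xiap (-0.011), Birc2 (-0.36), Birc3 (-0.032), Ripk1 (-0.28), Foxo1 (-0.26), Mapk9 (-0.13), Usp9x (-0.005) and Akt1 (-0.24), by the shift of all genes. Casp9 turned with the acinar covariate (-0.052), and without the acinar-rich libraries Casp9 (-0.066), Bok (-0.22) and Aifm1 (-0.17) did. With the acinar covariate and without Traf6 KO 3 Traf6 (0.11), Bak1 (0.041) and Tnfrsf10b (-0.28) turned. The cause was not tested elsewhere. Same-numbered libraries did not deviate together in all cases (correlations of 0.597, -0.177 and 0.454 over genes). Traf6 KO 2 correlated best with control 1, at 0.533, and Traf6 KO 3 with control 2, at 0.482. Traf6 KO 1, Traf6 KO 2 and control 1 are the acinar-rich libraries, so these correlations cannot decide whether same-numbered libraries are paired. No member passed with the replicate block. Depth limits Pmaip1, with 13 counts in control 1 and in Traf6 KO 1, and Bcl2a1d, with 6 counts in control 2.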

Other observations

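Some further ratios within a library, chosen after the values were seen and given with no test, set members of the family side by side. Mcl1 per Bcl2l1, as counts per kb, was 3.53, 3.53 and 3.54 in controls 1 to 3, and 4.91 for the library labelled control 4, against 7.18, 6.68 and 7.33 in Traf6 KO 1 to 3. The library labelled control 4 lay between controls 1 to 3 and the Traf6 KO libraries here. Bax per Mcl1 was 0.646, 0.592 and 0.622 in controls 1 to 3, and 0.603 for the library labelled control 4, against 0.327, 0.313 and 0.331 in Traf6 KO 1 to 3. In that ratio the library labelled control 4 sat among the other controls. Mcl1 lay higher, and Bcl2l1 and Bax lower, without overlap in CPM, so neither of these ratios could overlap. Bbc3 per Mcl1 overlapped between genotypes, from 0.166 to 0.267 in control and at 0.153, 0.148 and 0.323 in Traf6 KO 1 to 3.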
